A study of Equus caballus with 2 samples.

Results

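The mitosis genes described here are a given list of 50 genes that act in the division of chromosomes and cells, and they were followed over all cells of both deposited single cell libraries of equine endometrial fibroblasts. Of the 50 symbols, 46 were found among the 21426 genes of the files, each on 1 row. *MAD2L1*, *PTTG1*, *CENPE* and *MKI67* were not found by symbol, and since 5196 rows carry only an Ensembl identifier, nothing is said of their level. Fibroblasts of 4 mares were cultured on hydrogels coated with collagen, and each condition was a pool of the cells of all 4 animals. The medium of both conditions held bovine serum albumin in place of serum during the 24 h of treatment. Control cells had nothing added, while 10 ng/ml human recombinant TGF-β1 was added to the TGF-β1 cells. The comparison addresses how the RNA of the mitotic machinery differed between unstimulated fibroblasts and fibroblasts given TGF-β1. Each condition was 1 library, so no test was possible, and the mix of mares, culture, library preparation and treatment cannot be told apart.

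In a dividing cell, CDK1 bound to A- and B-type cyclins starts mitosis. Kinetochores then attach the chromosomes to spindle microtubules, the spindle checkpoint delays anaphase until all are attached, and CDC20 with the anaphase-promoting complex ends the delay. Most genes of this machinery are transcribed late in the cycle under FOXM1, B-MYB and the DREAM complex, and are silent in resting cells. Withdrawal of serum is known to bring most cultured fibroblasts to rest. TGF-β1 is best known in these cells as an inducer of matrix and contractile genes, and its effect on fibroblast growth varies with the culture.

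Cells with at least 20000 UMIs (unique molecular identifiers, each marking 1 captured transcript), at least 3500 genes and under 4% mitochondrial UMIs were kept. This left 3865 control cells with a median of 50313 UMIs and 4513 TGF-β1 cells with a median of 43142 UMIs. Of the cell barcodes, 6 occurred in both libraries. The fibroblast markers *VIM*, *COL1A1* and *COL1A2* were found in 100% of the cells of both libraries, *DCN* and *LUM* in at least 99.7%. The epithelial markers *EPCAM* and *CDH1* held at most 6 UMIs per library, the endothelial marker *PECAM1* at most 9 and the immune marker *PTPRC* at most 1. The endothelial marker *VWF* held 99 and 45 UMIs.

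Over all kept cells, most mitosis genes were lower in the TGF-β1 library. A mean of at least 1 CPM (UMIs of a gene per 1000000 UMIs of the library) was reached by 43 members, and *CCNB3*, *KIF14* and *PRR11* did not reach it. Of the 43, 36 were lower in the TGF-β1 library and 7 were higher, where 51.3% of all 12116 genes with that level were lower. With a mean of at least 10 CPM, only 10 members remained, 5 lower and 5 higher, with a median log2 ratio of -0.058 and 2 of them more than 1.5-fold lower. As log2 of TGF-β1 over control, the members had a median ratio of -0.55, and all genes one of -0.01. More than 1.5-fold lower were 18 of the 43, where 9.36% of all genes were, and 0 of the 43 were more than 1.5-fold higher, where 7.64% of all genes were. *AURKA* lay at that limit with 1.499-fold, and 1 member passed it with a UMI minimum of 10000, without the cells above the 98th percentile of UMIs, with a median-of-ratios size factor and as the mean of per-cell CPM. More than 2-fold lower were 4, *CDC20*, *CDK1*, *AURKB* and *KIF20A* (3.46% of all genes), and 0 were more than 2-fold higher (3.45%). The 95% counting interval lay wholly below 0 for 35 members and wholly above 0 for 4, against 42.2% and 39.5% of all genes. These intervals cover counting error only, with each UMI counted as independent. They hold nothing of the spread between cells or of the differences between mares or repeated cultures. In sums over all cells, fewer cells that carry these transcripts and less RNA in each such cell cannot be told apart, and the cells themselves are described further on.

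The summed level hid this difference. All 46 found members together made up 499.1 CPM in the control and 499.5 CPM after TGF-β1 (log2 ratio 0.0011, 95% counting interval -0.01 to 0.01). A single gene, *NUSAP1*, which encodes a protein that bundles spindle microtubules, held 28.1% of the members' control UMIs and 38.3% of their TGF-β1 UMIs. Without it, the sum was 358.7 CPM in the control and 308 CPM after TGF-β1 (log2 ratio -0.22, -0.23 to -0.20).

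**Figure D1:**
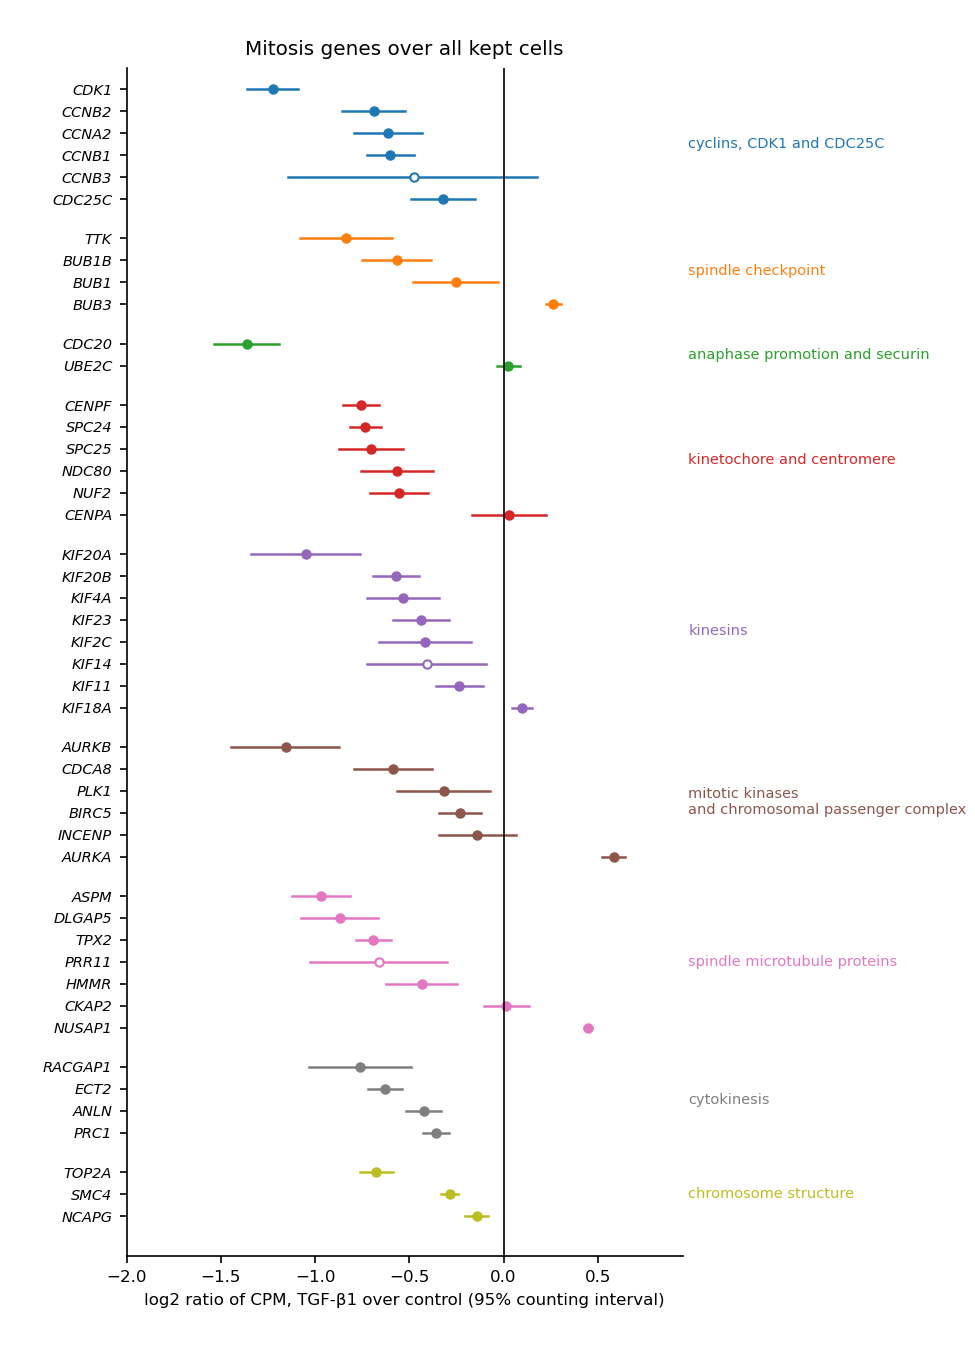
Log2 ratio of CPM, TGF-β1 over control, for the 46 mitosis genes over all kept cells, by functional subgroup. Points are ratios and lines 95% counting intervals, with open points for the 3 genes under a mean of 1 CPM. Most points lie left of 0. *AURKA*, *NUSAP1*, *BUB3* and *KIF18A* lie right of it, as do, close to 0, *UBE2C*, *CENPA* and *CKAP2*.

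The genes of mitotic entry were all lower after TGF-β1. *CDK1*, the kinase that drives a cell into mitosis, had 1425 UMIs in control cells and 636 in TGF-β1 cells, or 6.77 and 2.89 CPM. Its log2 ratio was -1.23 (-1.36 to -1.09), a level 2.34-fold higher in the control library. *CCNB1*, the main cyclin partner of CDK1 in mitosis, had 1290 and 888 UMIs and a ratio of -0.60 (-0.73 to -0.48). *CCNB2* and *CCNA2*, the other cyclins above that level, had ratios of -0.69 and -0.61. *CDC25C*, the phosphatase that switches CDK1 on, was the least different with 3.01 and 2.41 CPM (-0.32, -0.49 to -0.15). *CCNB3* had only 48 and 36 UMIs, and its interval of -1.14 to 0.18 included 0. The subgroup summed to 22.7 CPM in the control and 13.7 CPM after TGF-β1.

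The spindle checkpoint genes went in both directions. *TTK*, the kinase at the head of the checkpoint, had 374 UMIs in control cells and 219 in TGF-β1 cells, a log2 ratio of -0.83 (-1.08 to -0.59). *BUB1B*, part of the complex that holds CDC20 inactive, had a ratio of -0.57, and the kinase gene *BUB1* one of -0.25. *BUB3*, which brings both to the kinetochore, was higher in the TGF-β1 library with 46.4 and 55.8 CPM (0.26, 0.23 to 0.30). Because *BUB3* carried most UMIs of this subgroup, its sum was higher after TGF-β1 (0.19) while the median of its 4 genes was lower (-0.41). The genes that carry out the exit from metaphase were *CDC20* and *UBE2C*, and only the former differed beyond counting error. *CDC20*, the activator of the anaphase-promoting complex, had 961 UMIs in control cells and 390 in TGF-β1 cells. Its level of 4.57 CPM against 1.77 CPM gave the lowest ratio of all members, -1.36 (-1.54 to -1.19). *UBE2C*, the ubiquitin-conjugating enzyme of the same complex, had 19.8 and 20.2 CPM, and its interval of -0.04 to 0.09 included 0.

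The kinetochore genes were lower after TGF-β1 apart from *CENPA*. *NUF2*, *NDC80*, *SPC25* and *SPC24* encode the NDC80 complex, the main microtubule-binding complex of the kinetochore. Their ratios lay between -0.55 for *NUF2* and -0.73 for *SPC24*, which had 3035 UMIs in control cells and 1906 in TGF-β1 cells. *CENPF*, a large protein of the outer kinetochore that builds up in late cell cycle, had 10.9 and 6.44 CPM (-0.75, -0.85 to -0.66). *CENPA*, the histone H3 variant that marks the centromere, had 420 and 447 UMIs and a ratio of 0.03 (-0.17 to 0.22). The 6 found genes summed to 37.4 CPM in the control and 23.8 CPM after TGF-β1.

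Of the 8 kinesins, microtubule motors of the spindle and midzone, 7 were lower in the TGF-β1 library. *KIF20A*, a motor of cytokinesis, differed most with 299 UMIs in control cells and 151 in TGF-β1 cells (-1.05, -1.34 to -0.76). *KIF20B*, *KIF4A*, *KIF23*, *KIF2C*, *KIF14* and *KIF11* lay between -0.57 and -0.23. *KIF18A*, which damps chromosome movements at the metaphase plate, held most of the kinesin UMIs and was slightly higher with 27.1 and 29.0 CPM (0.10, 0.05 to 0.15). Since *KIF18A* outweighed the rest, the kinesins summed to 49.4 CPM in the control and 45.2 CPM after TGF-β1.

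The Aurora kinases stood at opposite ends. *AURKB*, the catalytic subunit of the chromosomal passenger complex, had 320 UMIs in control cells and 150 in TGF-β1 cells, a log2 ratio of -1.16 (-1.44 to -0.87). The other subunits of that complex were closer to 0, with -0.59 for *CDCA8*, -0.23 for *BIRC5* and -0.14 for *INCENP*, whose interval of -0.34 to 0.07 included 0. *AURKA*, which works at centrosomes and spindle poles, was higher after TGF-β1, with 3395 and 5313 UMIs or 16.1 and 24.2 CPM. Its ratio of 0.58 (0.52 to 0.65) was the highest of the 43 members. *PLK1*, the kinase that acts from mitotic entry to cytokinesis, had 302 and 253 UMIs (-0.32, -0.56 to -0.07).

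Among the spindle microtubule proteins, *NUSAP1* ran against most of the others. It had 29569 UMIs in control cells and 42087 in TGF-β1 cells, or 140.5 and 191.5 CPM (0.45, 0.43 to 0.47). *ASPM*, which focuses spindle poles, had 1000 and 533 UMIs and the lowest ratio of the subgroup, -0.97 (-1.12 to -0.82). *DLGAP5*, *TPX2*, *PRR11* and *HMMR* lay between -0.87 and -0.43, and *CKAP2* was at 0.01 (-0.11 to 0.13). *TPX2* is the spindle protein that activates AURKA, and its 11.4 and 7.04 CPM ran opposite to those of *AURKA*.

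All 4 cytokinesis genes and all 3 found genes of chromosome structure were lower in the TGF-β1 library. *RACGAP1*, the partner of KIF23 in the centralspindlin complex, had 302 UMIs in control cells and 186 in TGF-β1 cells (-0.76, -1.03 to -0.49). *ECT2*, which activates RhoA at the cleavage furrow, and *ANLN*, a scaffold of the contractile ring, had ratios of -0.63 and -0.42. *PRC1*, which bundles midzone microtubules, had 17.9 and 13.9 CPM (-0.36, -0.43 to -0.29). *TOP2A*, which untangles sister chromatids, had 13.2 and 8.25 CPM (-0.67, -0.76 to -0.59). The condensin genes *SMC4* and *NCAPG* were nearer to 0, with 39.8 and 32.7 CPM for *SMC4* (-0.29) and 21.3 and 19.3 CPM for *NCAPG* (-0.14).

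To see in which cells these transcripts lay, each cell was thinned to 20000 UMIs, so that all had the same depth. Over the thinned cells, the members' UMIs ranged from 0 to 375 per cell in the control library with a median of 7, and from 0 to 250 (median 8) after TGF-β1. A small number of cells carried much of the total. The 39 control cells with the most member UMIs (1% of cells) held 18.7% of them, and the 45 such TGF-β1 cells held 10.2%. Without *NUSAP1*, the median was 4 in both libraries, and the richest 1% of cells held 24.9% and 15.5% of the remaining member UMIs.

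To compare members within and outside such cells without using the members to pick them, cells were ranked by 38 other mitosis genes found in the files, among them *KNL1*, *CEP55*, *MELK*, *CDCA3* and *CIT*, which was itself higher over all TGF-β1 cells (log2 ratio 1.02). At least 5 UMIs of these genes were carried by 187 control cells (4.84%, exact 95% binomial interval 4.18% to 5.56%) and by 242 TGF-β1 cells (5.36%, 4.72% to 6.06%). At least 10 were carried by 79 control cells (2.04%, 1.62% to 2.54%) and 73 TGF-β1 cells (1.62%, 1.27% to 2.03%). The order of the libraries turned between the limits. At the limit of 5 it also turned with other thinning (2.17% and 1.93% at 10000 UMIs per cell, 33.2% and 30.9% without thinning) and with a narrower list of 28 of these genes chosen after seeing the data (2.28% and 1.88%). At 5 and 10, the intervals, which cover counting error in 1 library each, overlapped. With higher limits, chosen after seeing the data, the control share was the higher one, with 53 against 39 cells at 20 UMIs (1.37%, 1.03% to 1.79%, against 0.864%, 0.615% to 1.18%) and 40 against 18 cells at 30 UMIs (1.03%, 0.740% to 1.41%, against 0.399%, 0.237% to 0.630%). These intervals overlapped at 20 and not at 30, and the cells of 1 library are not replicates of a condition. The score is a continuous range and not a cell type. Within 1 UMI of the limit of 5 lay 244 control and 378 TGF-β1 cells, and within 1 UMI of the limit of 10 lay 13 and 20.

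**Figure D2:**
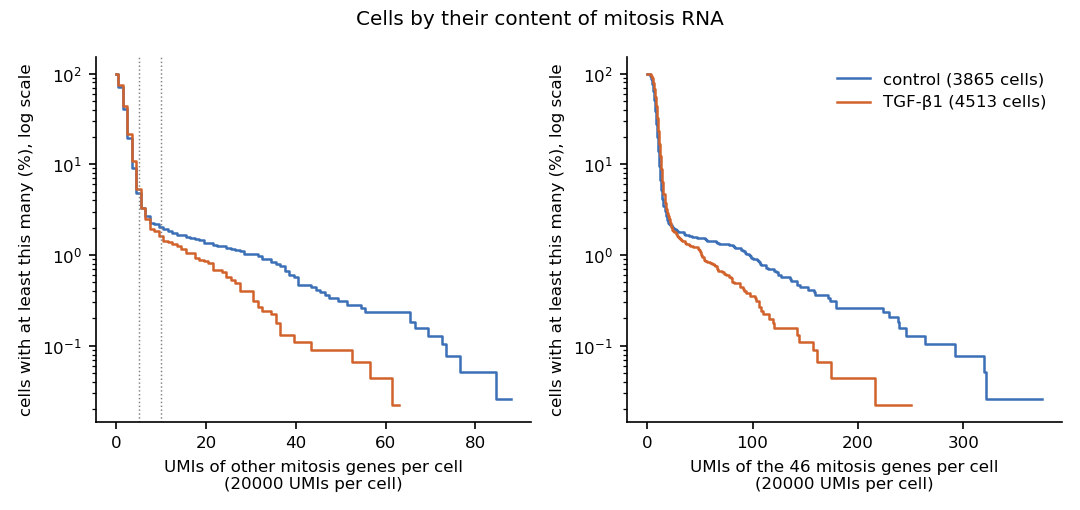
Share of cells (percent, log axis) carrying at least a given number of UMIs, after thinning to 20000 UMIs per cell, of the 38 other mitosis genes (left; dotted lines at 5 and 10) and of the 46 mitosis genes (right). The TGF-β1 curve lies slightly above at low numbers, and the curves cross before the tail, where the control curve lies above and reaches 375 member UMIs against 250 in the TGF-β1 library.

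The members were lower in sum in the cells rich in other mitosis genes and higher outside them, and most of the excess outside was *NUSAP1*. In cells with at least 5 UMIs of other mitosis genes, the mean was 52.3 member UMIs per thinned control cell and 30.4 per TGF-β1 cell (log2 ratio -0.78, -0.83 to -0.74). The medians were only 17 and 14, so that the richest of these cells carried the means, and 79 of the 187 control cells but 73 of the 242 TGF-β1 cells reached the limit of 10. In cells under 5, it was 6.76 and 8.14 (0.27, 0.24 to 0.29). Without *NUSAP1*, the means were 47.2 and 25.5 (-0.89, -0.94 to -0.84) in the first cells and 4.19 and 4.48 (0.10, 0.07 to 0.13) in the second. With the limit of 10, the cells above it had from 17 to 375 member UMIs in the control library with a median of 96, and from 14 to 250 (median 61) after TGF-β1. Their means were 108.6 and 72.5 (-0.58, -0.63 to -0.53), and the ranges of single cells overlapped widely. The standard deviations over these cells were 78.9 and 45.1 UMIs, a spread that the counting intervals leave out. At the limits of 20 and 30 the ratio was -0.55 and -0.35. The cells above the limit of 10 carried UMIs of a median of 32 members in control cells and 27 in TGF-β1 cells, against 4 in the remaining cells of either library.

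The cells above the limit of 10 also differed in other respects. Before thinning they had a median of 73668 UMIs in control cells and 60409 in TGF-β1 cells, against 50117 and 43006 in the remaining cells. Their median of the mitochondrial share was 1.30% and 1.18%, against 1.48% and 1.21%. Removal of the cells above the 98th percentile of UMIs, among which doublets may lie, took out 6 of the 79 control and 10 of the 73 TGF-β1 cells. Their mean for the 42 S phase genes was 55.2 and 45.5 UMIs per thinned cell (-0.28, -0.35 to -0.22), nearer to 0 than that of the members. The other mitosis genes that picked them had a mean of 32.4 and 22.8 UMIs, so that members and other mitosis genes stood in nearly the same ratio in both libraries, 3.35 and 3.18 member UMIs per UMI of the other genes. The part of depth and of the spread of the score in the members' difference was not tested.

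Values of single genes are given for the limit of 10, a stricter alternative to the main limit of 5. Within the cells above the limit of 10, 45 of the 46 found members had a lower mean in TGF-β1 cells. At least 20 UMIs over both libraries were present for 45 members, of which 44 were lower, where 53% of 9103 genes with as many UMIs were. Of the 45, 22 were more than 1.5-fold lower and 0 more than 1.5-fold higher, where 13% and 11.1% of all those genes were. Their median log2 ratio was -0.58, against -0.03 for all those genes. The counting interval lay wholly below 0 for 36 members and wholly above 0 for 0, against 12% and 11.9% of all genes. These counts are not separate results, since the members are not independent of each other or of the genes that picked the cells. Those genes had a mean of 32.4 UMIs in control and 22.8 UMIs in TGF-β1 cells. *CDC20* again differed most, from 4.10 UMIs per control cell to 1.41 per TGF-β1 cell (-1.54, -1.87 to -1.22), and it was found in 68.4% of these control cells and 54.8% of these TGF-β1 cells. Among the 45 members with at least 20 UMIs, *AURKB* (-1.21), *TTK* (-1.05) and *INCENP* (-1.04) were next. *TPX2* had 5.75 and 3.19 UMIs per cell, while 89.9% of the control and 93.2% of the TGF-β1 cells carried it. *BUB3* alone was higher, with 1.37 and 1.77 UMIs (0.37, -0.01 to 0.75).

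Apart from *BUB3*, the genes that were higher over all cells had a lower mean in these cells, although the intervals of *AURKA* and *CENPA* included 0. *NUSAP1* had 8.35 UMIs per control cell and 7.08 per TGF-β1 cell (-0.24, -0.41 to -0.07), *KIF18A* 2.41 and 1.81 (-0.41, -0.74 to -0.08), and *AURKA* 1.85 and 1.47 (-0.33, -0.71 to 0.04). All 9 subgroups were lower in sum, from -0.34 for the spindle checkpoint to -0.78 for *CDC20* with *UBE2C*.

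**Figure D3:**
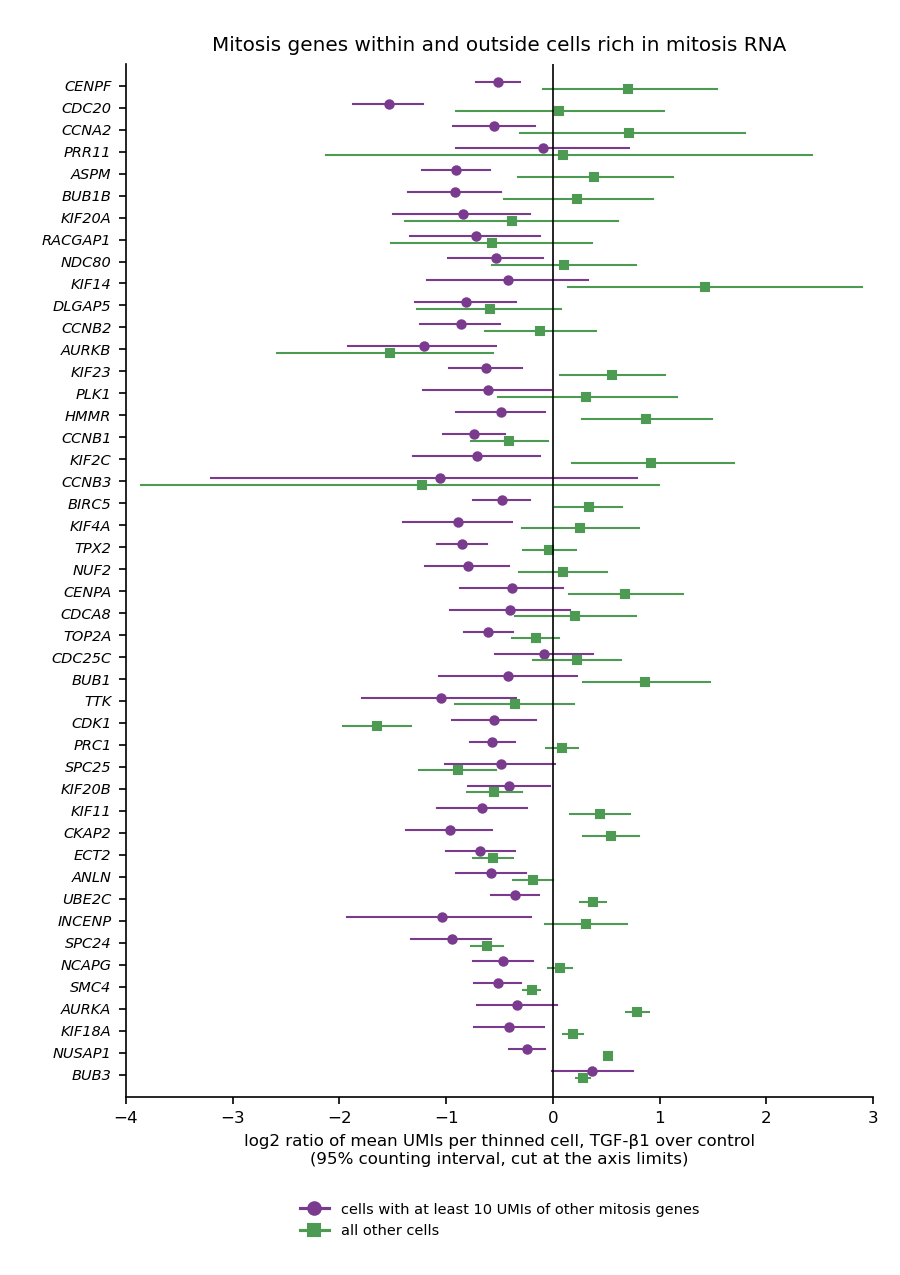
Log2 ratio of mean UMIs per thinned cell, TGF-β1 over control, for each mitosis gene in cells with at least 10 UMIs of other mitosis genes (circles) and in all other cells (squares), with 95% counting intervals. Circles lie left of 0 for 45 of 46 genes, whereas squares lie on both sides. Of the squares, *CDK1* and *AURKB* lie far to the left, *AURKA* and *NUSAP1* to the right and *KIF14* farthest right.

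In the remaining cells, which held 75.2% of the control and 87.4% of the TGF-β1 member UMIs, the members were divided. Of 44 members with at least 20 UMIs there, 16 were lower and 28 higher after TGF-β1 (median 0.20). Of all 14685 genes with as many UMIs there, 49.9% were lower. More than 1.5-fold lower were 5 members and more than 1.5-fold higher 8, against 12.2% and 11.2% of all genes. The counting interval lay wholly below 0 for 8 and wholly above 0 for 14, against 32.8% and 32.6% of all genes. The 8 lower genes were *CDK1*, *AURKB*, *SPC25*, *SPC24*, *ECT2*, *KIF20B*, *CCNB1* and *SMC4*. The 14 higher ones included *AURKA* (0.79), *NUSAP1* (0.51), *UBE2C* (0.37), *BUB3* (0.28) and *KIF18A* (0.19). At far lower levels they also included *KIF14* (1.42, with 7 and 22 UMIs), *KIF2C* (0.92), *HMMR* (0.87), *BUB1* (0.86) and *CENPA* (0.67).

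*CDK1* differed more outside the rich cells than within them, and the counting intervals did not overlap. Within, it was present in 64.6% of the control and in 57.5% of the TGF-β1 cells, with a log2 ratio of means of -0.55 (-0.94 to -0.16). Outside, its mean was 0.0824 UMIs per control cell and 0.0264 per TGF-β1 cell (-1.64, -1.96 to -1.33). The share of thinned cells with a *CDK1* UMI outside was 7.21% among control and 2.45% among TGF-β1 cells. In the 1081 control and 1127 TGF-β1 cells with 0 UMIs of the other mitosis genes the shares were 8.14% and 2.22%. *SPC25*, *SPC24* and *ECT2* had the same order in cells with 0 such UMIs, with 3.79% and 2.22% for *SPC25*, 17.3% and 10.9% for *SPC24*, and 10.3% and 6.74% for *ECT2*. *CENPF* and *CDC20*, in contrast, were found in at most 0.532% of the cells with 0 such UMIs in either library. A background share was not measured for any gene.

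The members differed widely in how far they were concentrated in the rich cells. Over both libraries together, *CENPF* had a mean 735-fold higher in the cells above the limit of 10 than in the others, *CDC20* 578-fold, *CCNA2* 353-fold, *PRR11* 337-fold and *ASPM* 286-fold. The fold differed between the libraries, with 1148 in control and 494 in TGF-β1 cells for *CENPF* and 863 and 285 for *CDC20*. The ratio was under 10-fold for 7 members, namely *SPC24* (9.90), *NCAPG* (9.28), *SMC4* (7.99), *AURKA* (4.40), *KIF18A* (4.24), *NUSAP1* (2.44) and *BUB3* (1.53). In control cells alone it was under 10-fold for 5 members, since *SPC24* (10.5) and *NCAPG* were over it, and in TGF-β1 cells alone for 8, since *INCENP* (7.76) was added. *NUSAP1* was found in 91.7% of all thinned control cells and 96.7% of all thinned TGF-β1 cells, and *BUB3* in 59.5% and 66.3%. For *NUSAP1*, 6.33% of the control UMIs and 3.07% of the TGF-β1 UMIs lay in the rich cells, whereas for *CENPF* these were 96.0% and 89.0%.

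By the fold over both libraries, the 39 members with at least 10-fold higher levels in the rich cells summed over all cells to 193.5 CPM in the control and 138.4 CPM after TGF-β1 (-0.48, -0.51 to -0.46). The 7 members under 10-fold summed to 305.7 and 361.2 CPM (0.24, 0.23 to 0.26), and *NUSAP1*, with 140.5 and 191.5 CPM, made up most of that difference. Of these 7, *SPC24*, *NCAPG* and *SMC4* were lower and the other 4 higher. The limit of 10-fold was set after these values were seen, so this division is a description. Of the 7 members that were higher after TGF-β1 over all cells, 4 were under 10-fold, and the other 3, *UBE2C*, *CENPA* and *CKAP2*, had ratios of at most 0.03.

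**Figure D4:**
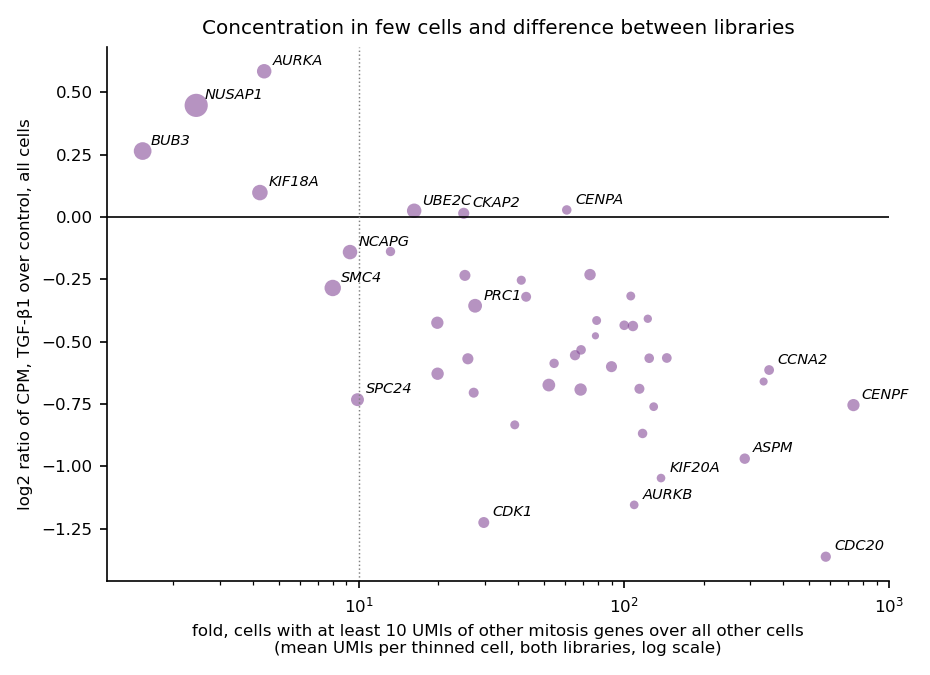
For each mitosis gene, the fold by which its mean in cells with at least 10 UMIs of other mitosis genes exceeds that in all other cells (x, log axis, both libraries) and its log2 ratio of CPM over all cells, TGF-β1 over control (y); larger points mark more UMIs. The highest ratios, *AURKA*, *NUSAP1* and *BUB3*, belong to genes under 5-fold, and *CDC20* lies lowest at 578-fold.

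Other cell cycle lists gave the surroundings of these values. The 27 other mitosis genes above the same CPM minimum had a median log2 ratio of -0.44, with 20 lower and 7 higher. *PBK*, a mitotic kinase, had the lowest ratio (-1.36, from 3.16 to 1.23 CPM), and *CIT*, the citron kinase of cytokinesis, the highest (1.02, from 6.08 to 12.3 CPM). The 13 constitutive centromere genes had a median of -0.12, the 13 subunits and regulators of the anaphase-promoting complex one of 0.03, and the 40 S phase genes one of -0.05. Among 26 regulators of mitotic genes the median was -0.08. *CDKN2C*, an inhibitor of the G1 kinases CDK4 and CDK6, had 35.5 CPM in the control and 12.3 CPM after TGF-β1 (-1.53, -1.60 to -1.47). *RB1*, the retinoblastoma protein that restrains E2F factors, had 116 and 59.9 CPM (-0.96, -0.99 to -0.92). *TYMS*, thymidylate synthase, was the S phase gene farthest from 0 (-1.12, -1.21 to -1.03).

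**Figure D5:**
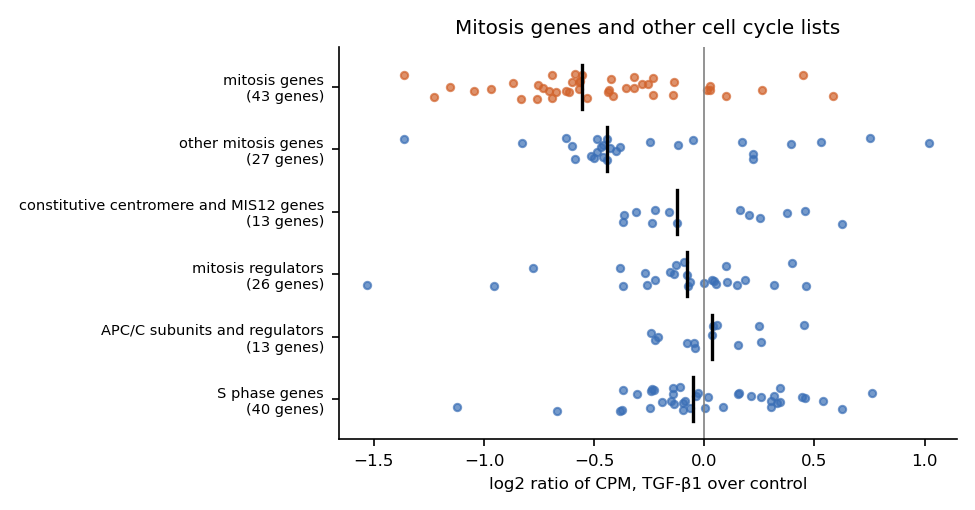
Log2 ratio of CPM, TGF-β1 over control, of every gene with a mean of at least 1 CPM in the mitosis genes and in 5 other cell cycle lists, with the median as a black bar. The medians of the mitosis genes (-0.55) and of the other mitosis genes (-0.44) lie left of those of the remaining lists, which lie between -0.12 and 0.03.

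Across thinned cells, the genes outside the list whose log UMIs ran most closely with the log of the summed members were sought. The points of these correlations are cells that share a library, a thinned depth and, in part, a cell cycle stage, so they are a description. Over 3865 control and 4513 TGF-β1 cells, *CEP55*, which acts in the final cut between daughter cells, had r = 0.55 and 0.42, *KNL1*, the kinetochore scaffold that binds BUB1 and BUB3, 0.50 and 0.36, and *CDCA3* 0.52 and 0.35. *DIAPH3*, a formin that nucleates actin, had r = 0.42 and 0.33, and its levels over all cells were 17.9 and 17.7 CPM (log2 ratio -0.01, -0.08 to 0.05). *PBK*, *CENPN* and *MYBL2*, which encodes B-MYB, and 3 genes given only by an Ensembl identifier made up the remaining 6 of the 10 closest.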

How the data were processed

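The authors deposited, for each library, UMI counts per gene and cell barcode without normalization. Droplet libraries (3′ chemistry) were aligned and counted in Cell Ranger (7.1.0 in the notes, 8.0.1 in the file header) with the EquCab3.0 genome and the Ensembl annotation. Whether reads in introns were counted is not given in the sources used here. The submitters' notes also name Seurat 5 and edgeR 4.2.2, which were not run here. Barcodes outside the study's filters were still present, and doublets and mares, called in the study from reads, were not assigned.

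Cells with at least 20000 UMIs, 3500 genes and under 4% mitochondrial UMIs were kept, leaving 210497250 control and 219731144 TGF-β1 UMIs. UMIs were summed per library and scaled to CPM in Python 3.11.15 (numpy 2.4.6, scipy 1.17.1, pandas 2.3.3, matplotlib 3.10.9). Ratios carry no pseudocount, and none is given where both libraries had 3 or fewer UMIs. Their 95% intervals are exact conditional binomial ones. The simulated counts on which they were tried held counting error only, so that trial says nothing of the spread between cells. For shares of cells, each cell was thinned to 20000 UMIs (seed 1). No test could be made on 1 library per condition. Columns of other samples numbered 0.

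The members, the lists and the limits were chosen with earlier results of these data known. Any member could be named, with full values for the highest mean CPM and the highest and lowest ratio of each subgroup. In the other lists the 3 genes farthest from 0 were eligible, and outside the lists the 10 with the highest lower correlation of both libraries. Promoter motifs were planned and not run, since no promoter sequence was used here. Alternatives were other cell filters, removal of likely doublets by UMIs or by Scrublet (scanpy 1.11.5), scalings, CPM minimums, fold limits, score limits and thinning depths.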

Additional observations from a re-analysis of the deposited data

Results flagged for a closer look

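The members' summed level differed in opposite directions in cells rich and poor in other mitosis genes, which flagged both values: TGF-β1 over control gave a log2 ratio of -0.78 in cells with at least 5 UMIs of those genes and 0.27 in cells with fewer. Without *NUSAP1*, the ratios were -0.89 and 0.10. The difference between these ratios was not tested.

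The barcodes outside the cell filter are not part of the comparisons and carried mitosis RNA, 687 CPM of member UMIs in the 519 control barcodes (95% counting interval 660 to 713), against 499.1 CPM in the kept control cells. The 611 TGF-β1 barcodes outside the filter had 514 CPM (493 to 535). Of the control barcodes, the 38 with at least 20000 UMIs had 1289 CPM and a median mitochondrial share of 5.40%, and the 481 with fewer UMIs had 425 CPM. Of the TGF-β1 barcodes, the 8 with at least 20000 UMIs had 496 CPM and the 603 with fewer had 515 CPM. In the control barcodes, *NUSAP1* gave 214 CPM of the 1289 and 125 CPM of the 425.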

How the results depend on the processing

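With 1 library per condition, the depth of these libraries limits only counting error, and low genes such as *CCNB3* could not be placed on either side of 0. The median log2 ratio of the members was negative under all 10 alternatives, from -0.57 to -0.058. It was -0.058 with a mean of at least 10 CPM, where 10 members remained, 5 of them lower and 5 higher. The count of members more than 1.5-fold lower, 18, became 2 with that minimum, 4 with a 2-fold limit and 28 with the laxer fold limit. The ratio of the summed members stayed near 0 at 0.015 without the cells above the 98th percentile of UMIs, 0.024 with a median-of-ratios size factor and 0.055 as the mean of per-cell CPM, and was -0.22 without *NUSAP1*.

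The sums of the subgroups also moved with the scaling and the minimum. As the mean of per-cell CPM they were -0.84 for the cyclins, -0.062 for the kinesins, 0.31 for the mitotic kinases, 0.36 for the spindle proteins, -0.41 for cytokinesis and -0.25 for chromosome structure. With a mean of at least 10 CPM, 1 gene was left in most subgroups, *BUB3* for the checkpoint (0.26), *SPC24* for the kinetochore (-0.73), *AURKA* for the kinases (0.58), *NUSAP1* for the spindle proteins (0.45) and *PRC1* for cytokinesis (-0.36). The values of *CDC20* with *UBE2C* (0.025) and of the kinesins (0.10) turned to above 0, since only *UBE2C* and only *KIF18A* remained there, and no cyclin reached it.

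The share of cells rich in other mitosis genes depended on the limit. In the control and TGF-β1 library it was 19.2% and 21.7% at 3 UMIs, 2.04% and 1.62% at 10, 2.17% and 1.93% after thinning to 10000 UMIs, and 33.2% and 30.9% without thinning. The members' ratio within those cells was negative in all 12 alternatives, at -0.38, -0.58, -0.67 and -0.29 in that order, and -0.84 without the cells above the 98th percentile of UMIs. Chosen after seeing the data were a narrower list of 28 other mitosis genes, each found in under 5% of control cells, with shares of 2.28% and 1.88% and a ratio of -0.61, and the limit of 10 without the highest 6% of Scrublet scores, with 2.08%, 1.71% and -0.60. So were the limits of 20 UMIs, with 1.37%, 0.864% and -0.55, and of 30, with 1.03%, 0.399% and -0.35. Leaving out the highest Scrublet scores removed 163 control and 235 TGF-β1 cells, of which 2 and 0 were rich cells at the limit of 10. At the limit of 5, 180 of 187 control and 226 of 242 TGF-β1 rich cells were left. No paired analysis was possible because the cells of each pool were not assigned to mares here. The window alternative for promoter motifs was not run.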

Other observations

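Genes of the regulators and of the other lists also differed between the libraries. *CDC25B*, a phosphatase that activates CDK1 at the start of mitosis, had 24.7 CPM in the control and 14.4 CPM after TGF-β1 (log2 ratio -0.78, -0.84 to -0.72), and was found in 34.9% and 22.2% of the thinned cells. *TIPIN*, which protects stalled replication forks, was higher after TGF-β1 with 12.1 and 20.6 CPM (0.76, 0.69 to 0.83). *MIS12*, a subunit that links the NDC80 complex to the centromere, had 515 and 828 UMIs (0.62, 0.46 to 0.78), whereas all 4 genes of the NDC80 complex itself were lower. *CENPP* and *CENPU*, subunits of the constitutive centromere network, had ratios of 0.46 and 0.38. Of the 13 genes of the list that holds these 2 and *MIS12*, 7 were lower and 6 higher. Of the anaphase-promoting complex, *ANAPC15* (0.45), *CDC26* (0.25) and its activator *FZR1* (0.26) were higher, beside a ratio of -1.36 for its other activator, *CDC20*. Among the 13 genes of its list, 6 were lower and 7 higher. *CIT* was found in 9.47% of the thinned control and 20.7% of the thinned TGF-β1 cells.

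The highest number of UMIs of a single member in 1 thinned cell was 50 for *CENPF* in control cells and 25 in TGF-β1 cells, and 34 and 11 for *CDC20*.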
